A study of Mus musculus with 19 samples.

Results

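The striatum of HD140Q knock-in mice that express full-length mutant huntingtin (KI-FL) was compared with that of wild type (WT) mice. The mice were chosen by genotype alone, as 4 KI-FL and 7 WT mice among 19 sequenced mice, and 18521 of 54232 counted genes were abundant enough to be tested. Huntington's disease is caused by expansion of a CAG repeat in the first exon of the huntingtin gene, which lengthens a glutamine tract near the start of the protein. The spiny projection neurons of the striatum, which form the direct and indirect pathways, are the neurons most affected. Mutant huntingtin is known to form nuclear aggregates and to alter transcription.

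All mice were 6 months old and on a C57/BL/6 background. KI-FL mice carry the germline HD140Q allele with 140 glutamines in its name and, per the study, express the mutant protein in full. Their strain label is nevertheless the one of the CRISPR-Cas9 truncated lines. The zygosity, sex and sacrifice batch of the sequenced mice are not in the labels. The other 8 mice carry truncated mutant alleles and are not described, but they entered the fit and so bear on the filter, the scaling and the estimated spread. RNA came from dissected tissue, in which fewer cells of a type and less RNA per cell cannot be told apart.

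The stretch of Htt that the mutation lengthens is shown as it stands in the mouse reference, to place the mutation in the gene. These are the first 150 bases of the coding sequence, in exon 1 on the plus strand of chr5:34761907-34762056 (GRCm38), and capitals mark the run of 7 glutamine codons that starts at codon 18, of which 6 are CAG.
Htt: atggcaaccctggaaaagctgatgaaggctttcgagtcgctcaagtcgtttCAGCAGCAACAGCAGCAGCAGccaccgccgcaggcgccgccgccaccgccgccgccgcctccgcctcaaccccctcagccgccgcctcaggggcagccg

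Reads counted on genes ranged from 17281603 to 26388542 in WT mice and from 12669809 to 19954229 in KI-FL mice. KI-FL mouse 4 stood apart, with 0 counts for 3186 of the tested genes, against 134 to 222 in KI-FL mice 1 to 3 and 10 to 45 in WT mice, so that results are given with and without it. Only 275 of its genes held exactly 1 read, where KI-FL mice 1 to 3 had 1229 to 2073 such genes and WT mice 2707 to 3032. The transcript Xist, made from the inactive X chromosome, was high in WT mouse 1 and KI-FL mouse 2 and in no other of these 11 mice. The mean of 5 sex-linked genes was -0.59 log2 CPM in WT mouse 1, -0.55 in KI-FL mouse 2 and 3.71 to 4.45 in the others. Markers of striatal projection neurons had a mean of 7.96 to 8.47 log2 CPM in WT mice and of 8.44, 8.23, 8.19 and 8.23 in KI-FL mice 1 to 4, where CPM is the usual read count scaled to a common library size. Cortical excitatory neuron markers lay lower, at 5.59 log2 CPM in WT mouse 3, at most 3.26 in the other WT mice and 2.36, 2.54, 3.44 and 1.46 in the KI-FL mice, and none of 39 homeobox cluster genes was abundant enough to be tested.

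Htt was 160.2, 155, 179 and 137 CPM in KI-FL mice 1 to 4 and 168, 173 and 195 CPM at the lowest, median and highest of the WT mice. KI-FL mouse 3 lay inside the WT range and the other 3 below it. The log2 fold change was -0.18 ± 0.11 (SE, adjusted p = 0.431), and -0.12 ± 0.12 without KI-FL mouse 4 (adjusted p = 0.707). All adjusted p-values here and in what follows come from the quasi-likelihood test of edgeR, adjusted by Benjamini-Hochberg over all tested genes. Total counts do not separate the mutant from the normal allele, and so cannot check the label of the knock-in.

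With all mice, 36 genes differed at an adjusted p under 0.05, which is 0.194% of the tested genes. Of these, 15 rose (0.081%) and 21 fell (0.113%), with adjusted p-values from 0.0279 to 0.0488, and 22 changed by less than 2-fold. At an unadjusted p under 0.05 there were 3099 genes (16.7%), 1462 of them higher in KI-FL mice (7.89%) and 1637 lower (8.84%). Without KI-FL mouse 4, 18997 genes were tested and 7 were called (0.0368%), 3 higher (0.0158%) and 4 lower (0.0211%). At an unadjusted p under 0.05 there were then 2553 genes (13.4%), 1187 higher (6.25%) and 1366 lower (7.19%). The 2 sets of calls shared 4 genes, Kcng1 and Dhrs7, which rose, and Pde8a and Gm6145, which fell.

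The number of calls depended on single mice. With edgeR, 0 genes passed when WT mouse 1, 5, 6 or 7 or KI-FL mouse 2 was left out, 1 without WT mouse 4, 4 without KI-FL mouse 3 and 67 without WT mouse 3, while 2411 to 3262 genes stayed at an unadjusted p under 0.05 over these and the other mice left out in turn. DESeq2 called 509 genes with all mice and 167 without KI-FL mouse 4.

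All 36 genes kept their direction without KI-FL mouse 4 and were at an unadjusted p under 0.01 there, with adjusted p-values from 0.0198 to 0.138, and 24 of the fold changes became smaller. For 35 of the 36, the levels of the 4 KI-FL mice did not overlap with those of the 7 WT mice, which held for 979 of all tested genes (5.29%). With KI-FL mice 1 to 3 alone it held for 1574 of these genes (8.5%). KI-FL mouse 4 was the KI-FL mouse farthest from WT in 15 of the 36 genes and the nearest in 6. Because the 36 genes were chosen by their p in these same mice, little overlap follows largely from that choice. The fit without KI-FL mouse 4 reuses the remaining mice, so neither the kept direction nor the lack of overlap is a separate test.

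**Figure D1:**
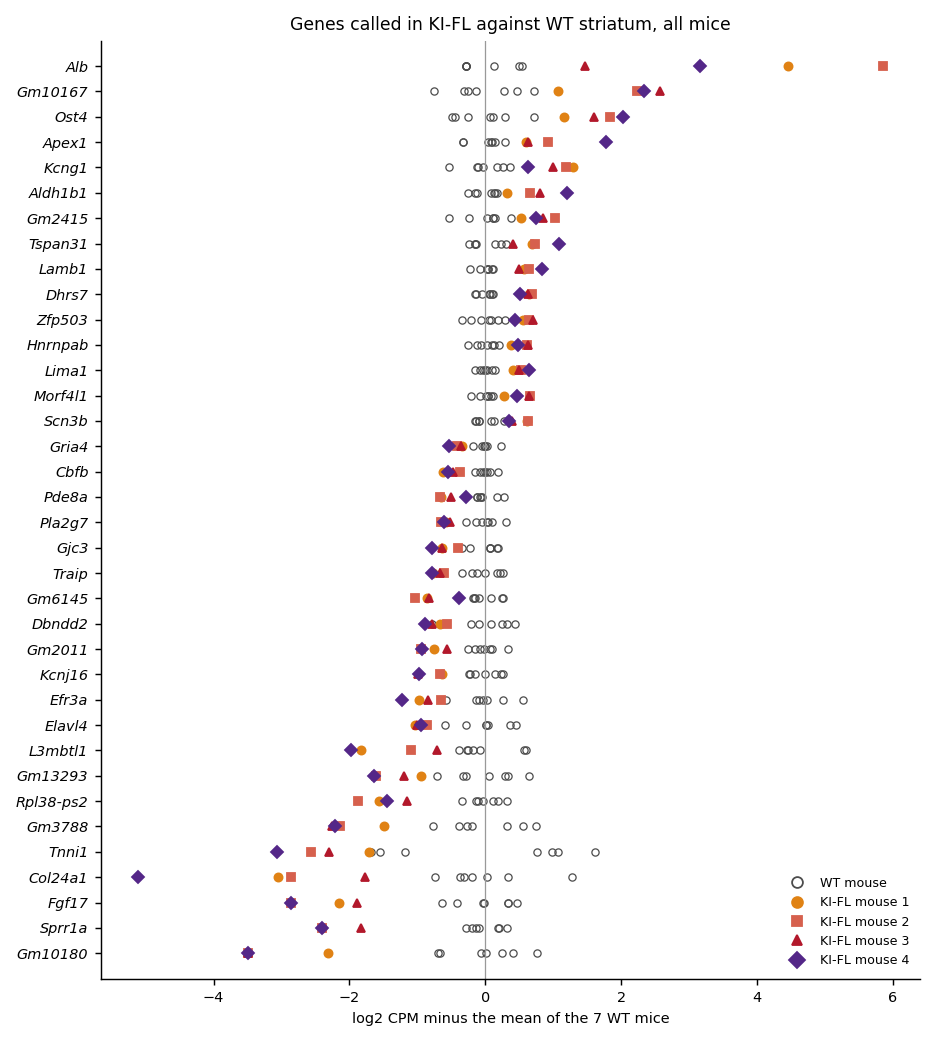
Level of each of the 36 called genes in each mouse, as log2 CPM minus the mean of the 7 WT mice (horizontal axis), with WT mice as open circles and KI-FL mice 1 to 4 as filled symbols. For 35 genes all KI-FL symbols lie on one side of all WT circles, the exception being Dbndd2, and KI-FL mouse 4 is the farthest KI-FL mouse in 15 genes.

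Kcng1 had the largest fold change of the 4 genes called both with and without KI-FL mouse 4. It encodes an electrically silent potassium channel subunit that modifies Kv2 channels, and it lies at chr2:168260117-168281736 on the minus strand (GRCm38). Its level was 77.0, 71.6, 62.9 and 48.8 CPM in KI-FL mice 1 to 4 and 21.6, 30.6 and 40.5 CPM at the lowest, median and highest of the WT mice. Every KI-FL mouse lay above every WT mouse, with mouse 4 the lowest of the 4. The log2 fold change was 1.03 ± 0.17 (2.04-fold higher, adjusted p = 0.0279), and 1.14 ± 0.18 without KI-FL mouse 4 (2.21-fold, adjusted p = 0.0198).

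Other channels and receptors rose or fell by less. Scn3b, a beta subunit of voltage-gated sodium channels, was 204, 207, 175 and 169.6 CPM in KI-FL mice and 119.6, 125 and 161 CPM at the lowest, median and highest in WT. It rose by 0.49 ± 0.099 on the log2 scale without overlap (adjusted p = 0.0443, and 0.0708 without KI-FL mouse 4). Gria4, an AMPA-type glutamate receptor subunit, was 77.9, 73.7, 76.7 and 68.4 CPM in KI-FL mice and 87.0, 98.7 and 116 CPM at the lowest, median and highest in WT. All KI-FL mice lay below all WT mice, at a log2 fold change of -0.42 ± 0.08 (adjusted p = 0.0435, and 0.09997 without KI-FL mouse 4). Kcnj16, an inwardly rectifying potassium channel subunit that pairs with Kcnj10, was 9.29, 9.10, 7.23 and 7.31 CPM in KI-FL mice and 12.2, 14.4 and 17.3 CPM at the lowest, median and highest in WT. It fell without overlap, at a log2 fold change of -0.83 ± 0.16 (adjusted p = 0.0435, and 0.09997 without KI-FL mouse 4).

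Of 81 tested potassium channel genes, Kcng1 and Kcnj16 were called, where 0.194% of all tested genes were. At an unadjusted p under 0.05 there were 7 higher and 16 lower, where 7.89% of all tested genes were higher and 8.84% lower. The median log2 fold change was -0.03, beside -0.03 for all tested genes. Kcnj10, the astrocytic partner of Kcnj16, had a log2 fold change of -0.47 ± 0.11 and Kcns1, another silent subunit, of -0.76 ± 0.18, and neither passed adjustment. There were 8 higher and 9 lower without KI-FL mouse 4, where 6.25% of all tested genes were higher and 7.19% lower. Without KI-FL mouse 1 there were 4 higher and 9 lower, where 6.94% of all tested genes were higher and 10.1% lower. In KI-FL mouse 4, 9 of the channel genes had 0 counts and the list mean was 3.84 log2 CPM. It was 4.20, 4.26 and 4.29 in the other KI-FL mice and 4.25 to 4.56 in WT.

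Among signalling genes, Pde8a, a phosphodiesterase that degrades cAMP, was 30.0, 29.8, 33.4 and 39.0 CPM in KI-FL mice 1 to 4 and 43.3, 45.5 and 57.0 CPM at the lowest, median and highest in WT. All KI-FL mice lay below WT, with mouse 4 the nearest. The log2 fold change was -0.53 ± 0.103 (adjusted p = 0.0435), and -0.61 ± 0.11 without KI-FL mouse 4 (adjusted p = 0.0418). Efr3a, which anchors a lipid kinase at the plasma membrane, was 26.7, 33.2, 29.2 and 22.4 CPM in KI-FL mice and 35.2, 51.3 and 77.4 CPM at the lowest, median and highest in WT, a log2 fold change of -0.95 ± 0.19. Pla2g7, the phospholipase that hydrolyses platelet-activating factor, was 47.0, 44.8, 49.0 and 46.1 CPM against 57.5, 71.8 and 86.6 CPM, a log2 fold change of -0.60 ± 0.12. Both fell without overlap, and for Efr3a the lowest WT mouse was close to KI-FL mouse 2.

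Zeb2 and Dpy19l1 were called only without KI-FL mouse 4. Zeb2, a zinc finger repressor of neural development, was 64.4, 65.3 and 70.2 CPM in KI-FL mice 1 to 3, below the WT range of 93.7 to 116 CPM, and 97.0 CPM in mouse 4, inside that range. Its log2 fold change was -0.64 ± 0.09 without mouse 4 (adjusted p = 0.0174) and -0.49 ± 0.11 with it (adjusted p = 0.0516). Dpy19l1, of the C-mannosyltransferase family, was 68.8, 73.9 and 71.4 CPM in KI-FL mice 1 to 3 and 100.6 CPM in mouse 4, with WT at 88.5 to 117 CPM. Its log2 fold change was -0.58 ± 0.1004 without mouse 4 (adjusted p = 0.0418) and -0.44 ± 0.11 with it (adjusted p = 0.0744).

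Genes of transcription and RNA binding went in both directions. Zfp503, a zinc finger protein of developing striatum, was 41.2, 43.5, 45.3 and 37.9 CPM in KI-FL mice and 21.9, 28.9 and 34.1 CPM at the lowest, median and highest in WT. It rose by 0.58 ± 0.12 on the log2 scale (adjusted p = 0.0462) without overlap. Hnrnpab, an RNA-binding protein, was 93.3, 110.2, 111 and 100.8 CPM against 60.3, 73.4 and 82.5 CPM and rose by 0.53 ± 0.105 (adjusted p = 0.0443). Elavl4, a neuronal RNA-binding protein also called HuD, was 17.5, 19.8, 17.9 and 18.6 CPM against 23.8, 36.4 and 49.1 CPM. The KI-FL mice were close to one another for Elavl4 and below every WT mouse, at a log2 fold change of -0.999 ± 0.19 (adjusted p = 0.0435, and 0.0972 without KI-FL mouse 4). Cbfb, the partner of Runx transcription factors, was 13.1, 15.6, 14.5 and 13.8 CPM against 18.1, 20.2 and 23.0 CPM and fell, at a log2 fold change of -0.51 ± 0.0996.

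Morf4l1, a chromodomain protein of acetyltransferase complexes, was 171, 224, 221 and 196 CPM in KI-FL mice and 122, 145 and 154 CPM at the lowest, median and highest in WT, and rose by 0.52 ± 0.103 on the log2 scale. L3mbtl1, which binds methylated histones, was 3.25, 5.46, 7.18 and 2.94 CPM against 8.98, 10.4 and 17.9 CPM and fell, at a log2 fold change of -1.38 ± 0.28. Neither overlapped between the groups. Of 29 tested genes of PRC2 and histone methylation none was called. At an unadjusted p under 0.05 there were 5 higher and 0 lower with all mice (median 0.05), where 7.89% of all tested genes were higher and 8.84% lower. Without KI-FL mouse 4 there were 5 higher and 0 lower (median 0.102), where 6.25% were higher and 7.19% lower. The 3 with the smallest p were the histone methyltransferase genes Ehmt2 (0.31 ± 0.098) and Suv39h1 (0.31 ± 0.12) and the deacetylase gene Hdac2 (0.23 ± 0.09).

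Lamb1, the laminin beta chain of basement membranes, had the smallest p with all mice and was 48.7, 51.1, 46.3 and 58.6 CPM in KI-FL mice against 27.9, 33.7 and 35.4 CPM at the lowest, median and highest in WT. It rose by 0.64 ± 0.102 on the log2 scale (adjusted p = 0.0279), with KI-FL mouse 4 the farthest from WT, and had 0.57 ± 0.11 without that mouse (adjusted p = 0.0599). Dhrs7, a short-chain dehydrogenase, was 47.7, 48.8, 47.1 and 43.3 CPM in KI-FL mice and 27.4, 31.7 and 32.9 CPM at the lowest, median and highest in WT. The gap between the groups was wider than the spread within either, with a log2 fold change of 0.62 ± 0.11 (adjusted p = 0.0355) and of 0.65 ± 0.12 without KI-FL mouse 4 (adjusted p = 0.0486).

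Genes of DNA repair were Traip and Apex1. Traip, a ubiquitin ligase of the replication stress response, was 35.8, 40.3, 38.5 and 35.7 CPM in KI-FL mice and 48.5, 61.3 and 74.0 CPM at the lowest, median and highest in WT, and fell, at a log2 fold change of -0.73 ± 0.12 (adjusted p = 0.0279, and 0.0623 without KI-FL mouse 4). Apex1, the main endonuclease of base excision repair, was 9.49, 11.9 and 9.70 CPM in KI-FL mice 1 to 3 but 21.5 CPM in mouse 4, with WT at 4.91, 6.59 and 7.64 CPM. All KI-FL mice lay above WT, and the log2 fold change was 1.07 ± 0.21 (adjusted p = 0.0435), or 0.72 ± 0.18 without KI-FL mouse 4 (adjusted p = 0.126).

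Aldh1b1, Tspan31, Lima1 and Ost4 also rose, each with its highest value in KI-FL mouse 4. Aldh1b1, a mitochondrial aldehyde dehydrogenase, was 14.3, 18.1, 20.2 and 26.4 CPM against 9.59 to 12.9 CPM in WT, and Tspan31, a tetraspanin, was 42.9, 44.0, 35.3 and 56.5 CPM against 22.5 to 32.8 CPM. Lima1, an actin-binding LIM protein, was 17.99, 19.6, 19.2 and 21.3 CPM against 12.2 to 14.96 CPM, and Ost4, a small subunit of the oligosaccharyltransferase, was 7.10, 11.4, 9.70 and 13.0 CPM against 2.18 to 5.19 CPM. None of the 4 overlapped, and their log2 fold changes were 0.78 ± 0.16, 0.74 ± 0.14, 0.52 ± 0.11 and 1.67 ± 0.34. None was called without KI-FL mouse 4. Dbndd2, a dysbindin-domain protein, was the called gene with overlap, at 56.8, 61.0, 52.3 and 49.0 CPM in KI-FL mice and 52.5, 96.5 and 122 CPM at the lowest, median and highest in WT.

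Several called genes lay near the floor of detection, where 3 counts equal 0.106 to 0.238 CPM in these mice. Alb, the serum albumin gene of liver, was 2.72, 7.36, 0.253 and 1.04 CPM in KI-FL mice. It had 155 and 5 counts over the KI-FL and the WT mice, a 72.2-fold ratio with a 95% exact counting interval of 30.3 to 225. The mean of 7 tested liver genes was 1.45, 1.75, -0.23 and -1.34 log2 CPM in KI-FL mice 1 to 4 and -0.84 to 0.22 in WT. This list also holds Ttr, a choroid plexus transcript that was high in KI-FL mouse 1, and Trf, an oligodendrocyte marker. Its median log2 fold change was 1.32 with all mice, 0.096 without KI-FL mouse 1 and 0.35 without KI-FL mouse 2. The part of liver transcripts in other results was not tested.

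Sprr1a, a cornified envelope protein, had 1 and 68 counts in KI-FL and WT mice (ratio 29.2, interval 5.07 to 1170). Fgf17, a fibroblast growth factor, had 3 and 104 counts (ratio 14.9, interval 4.95 to 73.3). These intervals cover counting error only, and Alb and Sprr1a were not tested when only WT and KI-FL mice were fitted. Tnni1, the slow skeletal troponin I, was 0.664, 0.317, 0.404 and 0.196 CPM in KI-FL mice and 0.675, 4.13 and 7.60 CPM at the lowest, median and highest in WT, so that KI-FL mouse 1 nearly touched the WT range. Col24a1, a fibrillar collagen, was 0.332, 0.396, 0.960 and 0 CPM against 2.06, 3.07 and 8.68 CPM, and Gm13293, a lincRNA, was 2.06, 1.27, 1.72 and 1.24 CPM against 2.46, 4.25 and 6.44 CPM.

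Of the 36 genes, 28 are protein-coding and 4 are processed pseudogenes. Among all tested genes, 80.2% are protein-coding and 2.24% are processed pseudogenes. Reads of such copies are uncertain, because copy and source share sequence. The pseudogenes Rpl38-ps2 and Gm10180 are printed because neither differs at any base from another gene, so that reads within these bases cannot be assigned by sequence. Flanking bases, which a read longer than the gene would cover, were not compared. Rpl38-ps2 lies on the minus strand of chr6:140746960-140747172 (GRCm38) and is identical to Rpl38 over 213 bases, and Gm10180 lies on the minus strand of chr9:25101404-25101481 and is identical to Gm10076 over 78 bases.
Rpl38-ps2: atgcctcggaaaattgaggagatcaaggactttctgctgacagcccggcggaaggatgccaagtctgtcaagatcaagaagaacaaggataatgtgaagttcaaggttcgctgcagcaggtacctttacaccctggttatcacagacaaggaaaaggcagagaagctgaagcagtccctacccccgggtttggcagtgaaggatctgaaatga
Gm10180: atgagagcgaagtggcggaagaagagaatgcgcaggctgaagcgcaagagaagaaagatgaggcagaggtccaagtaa

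Rpl38-ps2 was 3.65, 2.93, 4.90 and 3.98 CPM in KI-FL mice and 8.68, 10.7 and 13.7 CPM at the lowest, median and highest in WT, and fell, at a log2 fold change of -1.52 ± 0.31 (adjusted p = 0.0462). Rpl38, a ribosomal protein gene, had -0.49 ± 0.20 (adjusted p = 0.221). Gm10180 had 2 and 175 counts in KI-FL and WT mice (ratio 37.6, interval 10.2 to 313). Gm3788 shares 75.9% of its 50-base words with Tmsb10 and fell, at a log2 fold change of -2.25 ± 0.46, where Tmsb10 had 0.12 ± 0.18 (adjusted p = 0.763). Gm10167 was 1.93, 4.43, 5.66 and 4.76 CPM in KI-FL mice against 0.467, 0.777 and 1.49 CPM at the lowest, median and highest in WT, and rose by 2.20 ± 0.41 on the log2 scale without overlap (adjusted p = 0.0435).

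Overlapping genes are uncertain as well, since the strand setting of the counting is not given in the sources used here. Exons of Apex1 share 877 bases with Pip4p1 on the opposite strand, those of Hnrnpab 809 with Phykpl, those of Ost4 677 with Agbl5, those of Tspan31 641 with Cdk4, those of Morf4l1 1499 with Gm26882 and those of Pla2g7 319 with 1700071M16Rik. For genes called only without KI-FL mouse 4, exons of Zeb2 share 653 bases with Zeb2os and those of Rpl23a 506 with Tlcd1, both on the opposite strand. Dbndd2 shares 910 bases with Gm20458 on its own strand. The antisense gene Gm2415 shares 643 bases with Gm16295, and rose to 33.4, 47.2, 41.9 and 38.9 CPM from 15.9 to 30.3 CPM in WT. Gm2011, a transcribed pseudogene, shares 28.4% of its words with Abhd18, and fell to 8.83, 7.76, 10.2 and 7.83 CPM from 12.6 to 18.97 CPM. Gm6145, a non-coding transcript, was 12.9, 11.4, 13.2 and 18.01 CPM in KI-FL mice and 20.8, 22.0 and 28.1 CPM at the lowest, median and highest in WT. It fell with and without KI-FL mouse 4, at log2 fold changes of -0.77 ± 0.16 and -0.92 ± 0.17 (adjusted p = 0.0462 and 0.0486).

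**Figure D2:**
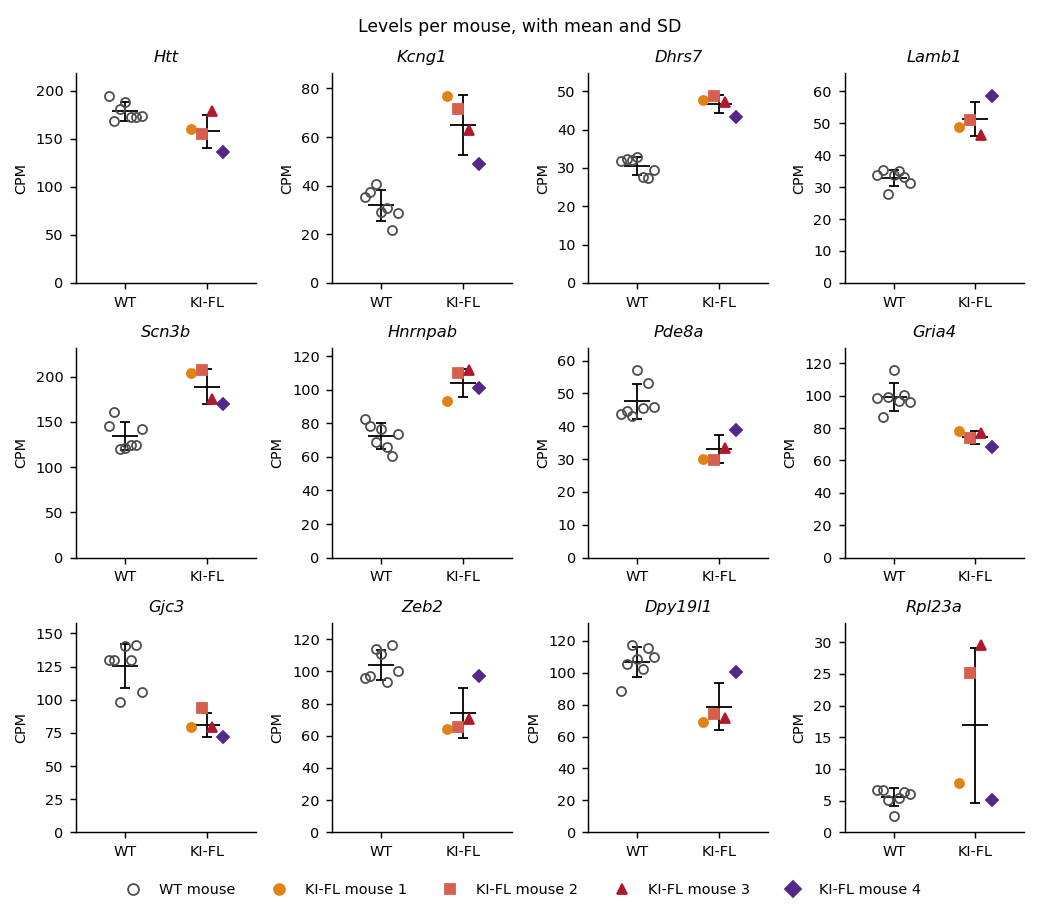
CPM of Htt and 11 genes called with all mice or without KI-FL mouse 4, in each WT mouse (open circles) and in KI-FL mice 1 (circle), 2 (square), 3 (triangle) and 4 (diamond), with the mean and SD of each group and axes from 0. KI-FL mouse 4 lies within the WT range for Zeb2 (97.0 CPM), Dpy19l1 (100.6 CPM) and Rpl23a (5.03 CPM) and with the other KI-FL mice for Dhrs7 and Gria4.

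Rpl23a, a protein of the large ribosomal subunit, was called only without KI-FL mouse 4 and divided the KI-FL mice. It was 7.77, 25.2, 29.5 and 5.03 CPM in KI-FL mice 1 to 4, with WT at 2.65, 6.07 and 6.68 CPM, so that mice 2 and 3 stood far above the others. The log2 fold change was 1.90 ± 0.32 without mouse 4 (adjusted p = 0.0418) and 1.601 ± 0.36 with it (adjusted p = 0.0605). Of its 50-base words, 80.8% occur in other genes. Rpl35 was also highest in KI-FL mice 2 and 3, at 17.4, 44.7, 53.6 and 22.6 CPM against 4.36 to 14.97 CPM in WT, as was Rpl3-ps1, a pseudogene with 91.4% of its words in Rpl3, at 40.8, 86.4, 118 and 45.0 CPM against 11.4 to 25.6 CPM. Neither passed adjustment (adjusted p = 0.0560 and 0.0605). Of 85 tested ribosomal protein genes, there were 14 higher and 3 lower at an unadjusted p under 0.05 (median 0.09), and 10 higher and 5 lower without KI-FL mouse 4 (median 0.04) and 9 higher and 4 lower without KI-FL mouse 3 (median 0.07).

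Other large differences without overlap did not pass adjustment. Higher were Gm6334, Gm6204, Gm10222, mt-Nd4l and Gm13091, with log2 fold changes of 3.44 ± 0.75, 2.52 ± 0.69, 2.21 ± 0.49, 2.07 ± 0.55 and 2.01 ± 0.43. Of the words of mt-Nd4l, a mitochondrial complex I gene, 98.8% occur in Gm10222. Lower was Gm37589 with 0 counts in KI-FL and 67 in WT mice. The counts in KI-FL and WT mice were 1 and 72 for the snoRNA Gm23615, 5 and 236 for the olfactory receptor Olfr287, 1 and 49 for the transporter Slc6a20b, 2 and 70 for Gm37078, 4 and 111 for Mir300 and 3 and 81 for Gm49272. Their ratios were 30.9, 20.3, 21.0, 15.03, 11.9 and 11.6.

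Promoters of Dhrs7, Lamb1 and Pde8a are shown because Dhrs7 rose and Pde8a fell both with and without KI-FL mouse 4, and because Lamb1 had the smallest p. Each is the 250 bases before the start of transcription in RefSeq (GRCm38.p6), at chr12:72664829-72665078 on the minus strand, chr12:31265043-31265292 on the plus strand and chr7:81213015-81213264 on the plus strand. Capitals mark matches, on either strand, to GGGCGG (GC box), TGACGTCA (cAMP response element), CCAAT or TATAAA.
Dhrs7: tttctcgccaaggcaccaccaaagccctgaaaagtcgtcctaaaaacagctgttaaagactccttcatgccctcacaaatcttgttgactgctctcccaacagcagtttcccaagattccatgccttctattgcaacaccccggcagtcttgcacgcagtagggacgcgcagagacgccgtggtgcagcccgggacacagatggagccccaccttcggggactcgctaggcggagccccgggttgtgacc
Lamb1: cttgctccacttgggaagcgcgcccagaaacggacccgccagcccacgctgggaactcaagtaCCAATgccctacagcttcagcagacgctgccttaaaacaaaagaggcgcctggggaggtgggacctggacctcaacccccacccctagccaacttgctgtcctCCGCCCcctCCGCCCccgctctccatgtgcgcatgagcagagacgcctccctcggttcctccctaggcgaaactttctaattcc
Pde8a: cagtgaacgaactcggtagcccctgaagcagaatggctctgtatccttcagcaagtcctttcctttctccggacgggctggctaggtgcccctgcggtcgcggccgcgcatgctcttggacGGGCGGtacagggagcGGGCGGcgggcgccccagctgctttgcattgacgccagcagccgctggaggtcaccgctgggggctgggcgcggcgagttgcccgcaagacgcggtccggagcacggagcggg

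A promoter was matched by symbol to 12617 tested genes, 11 of them called higher and 14 called lower. The GC box was in 59.9% of all these promoters, in 6 of the 11 and in 7 of the 14, and CCAAT was in 39.7%, 6 and 7. The cAMP response element was in 2.87%, 0 and 0, and TATAAA in 8.44%, 0 and 3. Lamb1 had 3 matches, Pde8a 2 and Dhrs7 none in these windows.

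Lists of related genes are described by their members at an unadjusted p under 0.05 in each direction and by their median log2 fold change, beside the 7.89% higher, 8.84% lower and median of -0.03 over all tested genes (-0.02 without KI-FL mouse 4). The shares of all tested genes were 3.64% higher and 4.85% lower against WT mice 1 to 4 alone, 7.29% and 6.96% against WT mice 5 to 7 alone, 6.94% and 10.1% without KI-FL mouse 1, and 7.2% and 10.1% without KI-FL mouse 3, and counts from those fits are read against them. Of 37 striatal projection neuron genes there were 2 higher and 1 lower (median 0.08, but -0.01 without KI-FL mouse 1, the KI-FL mouse with the highest list mean, and 0.01 against WT mice 1 to 4). These were Slc32a1, the vesicular GABA transporter, at 0.34 ± 0.13, Bcl11b, a transcription factor of these neurons, at 0.30 ± 0.14, and Ryr1, a calcium release channel, at -0.67 ± 0.21. There were 0 higher and 0 lower of 8 direct pathway and 0 higher and 0 lower of 7 indirect pathway genes. The dopamine receptor genes Drd1 and Drd2 had -0.04 ± 0.14 and 0.14 ± 0.16, Tac1, the substance P precursor, had 0.30 ± 0.15, and the adenosine receptor gene Adora2a had -0.01 ± 0.16. Of 31 dopamine and cAMP signalling genes there were 0 higher and 1 lower, the lower one being Rapgef4, a cAMP sensor, at -0.28 ± 0.099. Of 13 interneuron genes there were 1 higher and 1 lower, namely Slc18a3, the vesicular acetylcholine transporter, at 0.55 ± 0.22 and Vip, a neuropeptide, at -1.96 ± 0.76. Vip was 8.56 CPM in WT mouse 3, the one with the highest cortical markers, with a WT median of 1.27 CPM, and had -1.16 without that mouse.

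**Figure D3:**
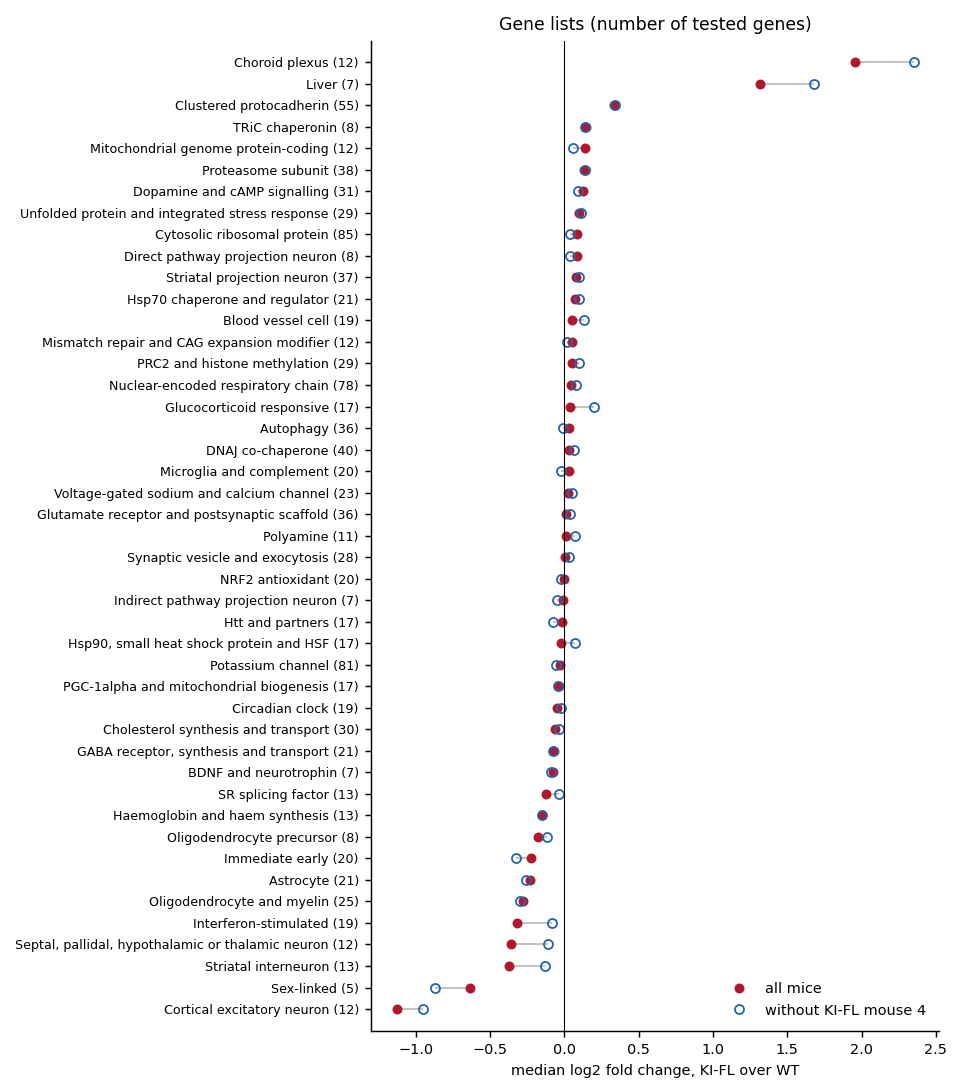
Median log2 fold change of KI-FL over WT (horizontal axis) for each gene list, with its number of tested genes in brackets, for all mice (filled) and without KI-FL mouse 4 (open). Clustered protocadherins lie at 0.33 and 0.34, oligodendrocyte and myelin genes at -0.28 and -0.30, and interferon-stimulated genes at -0.32 and -0.08.

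Clustered protocadherins are cell adhesion proteins whose combinations give neurons a surface identity. Of 55 tested members there were 19 higher and 0 lower, 46 had positive fold changes and the median was 0.33. Without KI-FL mouse 4 there were 19 higher and 0 lower (median 0.34). Against WT mice 1 to 4 alone there were 10 higher and 0 lower (median 0.27), where 3.64% of all genes were higher, and against WT mice 5 to 7 alone 16 higher and 0 lower (median 0.41), where 7.29% were. No member passed adjustment. Genes of the alpha cluster, and those of the gamma cluster, share constant exons, so that reads there cannot be assigned to one member.

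Of the protocadherin clusters, 4 of 12 alpha, 7 of 22 beta and 8 of 21 gamma genes were among the higher ones, with medians of 0.46, 0.36 and 0.33. Pcdha2 was 4.05, 3.96, 5.46 and 5.55 CPM in KI-FL mice and 1.48, 2.35 and 2.70 CPM at the lowest, median and highest in WT, at a log2 fold change of 1.17 ± 0.25 (adjusted p = 0.0511). Pcdhga4 was 12.1, 10.8, 12.1 and 14.3 CPM against 5.11, 6.89 and 9.81 CPM, at 0.79 ± 0.18. Neither overlapped with WT, whereas Pcdhb9 did (0.52 ± 0.13). The family mean was 2.90, 3.07 and 3.12 log2 CPM in KI-FL mice 1 to 3, above the WT range of 2.36 to 2.86, and 2.60 in mouse 4, in which 3 of the genes had 0 counts.

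Of 25 oligodendrocyte and myelin genes there were 0 higher and 10 lower with all mice and 0 higher and 10 lower without KI-FL mouse 4, and 24 had negative fold changes (median -0.28). Gjc3, a connexin of myelinating glia, was called, at 79.4, 93.7, 79.6 and 71.7 CPM in KI-FL mice and 98.1, 129.97 and 141 CPM at the lowest, median and highest in WT. All KI-FL mice lay below WT, at a log2 fold change of -0.63 ± 0.12 (adjusted p = 0.0435, and 0.1001 without KI-FL mouse 4). Ugt8a, which makes the myelin lipid galactosylceramide, had -0.76 ± 0.16 and did not pass adjustment. The list mean was 7.12, 7.11, 7.22 and 6.98 log2 CPM in KI-FL mice and 7.13 to 7.62 in WT, where WT mouse 3, the one with the most cortical marker RNA, was the lowest. Of 8 precursor genes there were 0 higher and 3 lower, namely Enpp6 at -0.54 ± 0.15, Sox6 at -0.34 ± 0.14 and C1ql1 at -0.34 ± 0.16.

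Of 21 astrocyte genes there were 0 higher and 7 lower with all mice (median -0.23) and 0 higher and 4 lower without KI-FL mouse 4 (median -0.26). Against WT mice 1 to 4 alone there were 0 higher and 2 lower (median -0.16), where 4.85% of all genes were lower. The list mean was 5.90, 5.96, 5.95 and 5.93 log2 CPM in KI-FL mice, below the WT range of 5.98 to 6.52. Aqp4, the water channel of astrocyte endfeet, had a log2 fold change of -0.49 ± 0.12, Gfap, the filament protein that marks reactive astrocytes, of -0.51 ± 0.20, and Serpina3n, another reactive marker, of -1.20 ± 0.47. None of these passed adjustment. Serpina3n was 40.4 CPM in WT mouse 6, with a WT median of 8.03 CPM, and had -0.56 without that mouse. Of 20 microglia and complement genes there were 3 higher and 3 lower, with the microglial genes P2ry12 at -0.54 ± 0.13, Ly86 at -0.81 ± 0.28 and Tmem119 at 0.53 ± 0.17.

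**Figure D4:**
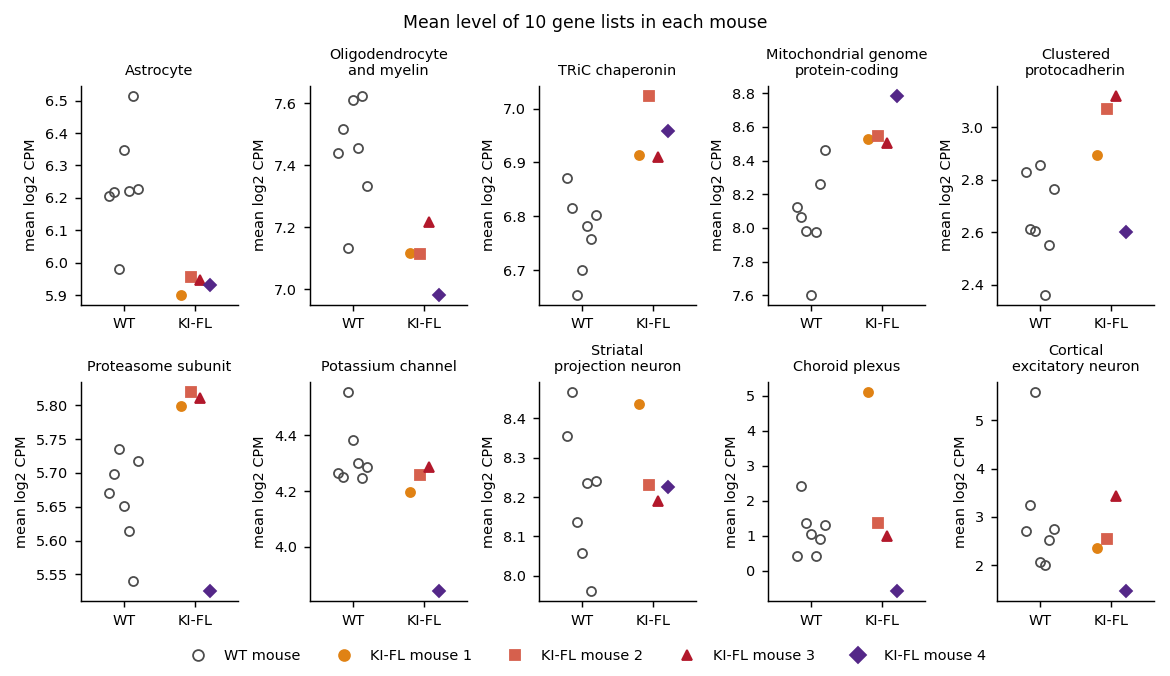
Mean log2 CPM of 10 gene lists in each WT mouse (open circles) and in KI-FL mice 1 to 4 (filled symbols), on axes that do not start at 0. All KI-FL mice lie outside the WT range for astrocyte, TRiC chaperonin and mitochondrial genome genes, KI-FL mouse 1 alone is high for choroid plexus genes (5.10) and KI-FL mouse 4 is the lowest for potassium channel genes (3.84), for which KI-FL mouse 1 (4.20) also lies below the WT range.

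TRiC is the chaperonin that folds actin and tubulin and also binds polyglutamine proteins. Of its 8 subunits there were 3 higher and 0 lower, all 8 had positive fold changes and the median was 0.14 (0.14 without KI-FL mouse 4). The list mean was 6.91, 7.02, 6.91 and 6.96 log2 CPM in KI-FL mice, above the WT range of 6.66 to 6.87. Tcp1, Cct3 and Cct2 had 0.38 ± 0.11, 0.27 ± 0.09 and 0.26 ± 0.09 and did not overlap with WT. Of 38 proteasome genes there were 9 higher and 0 lower and 8 higher and 0 lower without KI-FL mouse 4, with medians of 0.13 and 0.14. There were 5 higher and 0 lower without KI-FL mouse 1, where 6.94% of all genes were higher, and 2 higher and 0 lower against WT mice 1 to 4 (median 0.099), where 3.64% were. KI-FL mice 1 to 3 had list means of 5.80, 5.82 and 5.81 log2 CPM, above the WT range of 5.54 to 5.74, and mouse 4 had 5.53. Psmd4, a ubiquitin receptor, had 0.37 ± 0.09, and no TRiC or proteasome gene passed adjustment.

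Of 40 DNAJ co-chaperones there were 5 higher and 0 lower (median 0.03), with Dnajc14 at 0.43 ± 0.103. Of 21 Hsp70 genes there were 3 higher and 4 lower (2 higher and 0 lower without KI-FL mouse 4), with the regulators Bag5 at 0.28 ± 0.102 and Hspa4l at -0.30 ± 0.11. Of 17 genes of Hsp90, small heat shock proteins and HSF there were 2 higher and 0 lower, the co-chaperones Fkbp5 at 0.59 ± 0.15 and Fkbp4 at 0.30 ± 0.11. Of 29 genes of the unfolded protein and integrated stress responses there were 2 higher and 0 lower, Ppp1r15a at 0.36 ± 0.16 and Pdia6 at 0.36 ± 0.18. In this list there were 0 higher and 1 lower without KI-FL mouse 1, where 6.94% of all genes were higher and 10.1% lower. It had 0 higher and 0 lower without KI-FL mouse 2, where 1474 of 18974 genes were higher and 1788 lower. Of 36 autophagy genes there were 5 higher and 3 lower, with Gabarapl1 at 0.40 ± 0.102, Becn1 at 0.36 ± 0.1004 and Rb1cc1 at -0.34 ± 0.099.

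Of 78 nuclear-encoded respiratory chain genes there were 11 higher and 1 lower (median 0.04), and 11 higher and 0 lower without KI-FL mouse 4 (median 0.08). There were 5 higher and 0 lower without KI-FL mouse 3 (median -0.0037), where 7.2% of all genes were higher, and 4 higher and 0 lower against WT mice 1 to 4 (median 0.03), where 3.64% were. The complex I subunit genes Ndufb8, Ndufb6 and Ndufa9 had 0.60 ± 0.14, 0.57 ± 0.15 and 0.37 ± 0.103, each without overlap. Of 12 genes of the mitochondrial genome there were 4 higher and 0 lower (median 0.14, and 0.06 without KI-FL mouse 4). Their mean was 8.53, 8.55, 8.50 and 8.78 log2 CPM in KI-FL mice and 7.60 to 8.46 in WT. The ATP synthase gene mt-Atp6 had 1.17 ± 0.39 and the cytochrome oxidase gene mt-Co3 had 1.15 ± 0.40. Of 17 genes of mitochondrial biogenesis there were 3 higher and 2 lower, with Ppargc1a, the coactivator PGC-1alpha, at -0.36 ± 0.12, Esrrg, a nuclear receptor, at -0.62 ± 0.21 and Twnk, the mitochondrial helicase, at 0.34 ± 0.12. Of 30 cholesterol genes there were 1 higher and 6 lower (median -0.07), with the synthesis enzymes Hmgcs1 at -0.38 ± 0.12, Idi1 at -0.56 ± 0.18 and Msmo1 at -0.32 ± 0.11.

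Synaptic lists held both directions. Of 36 glutamate receptor and scaffold genes there were 4 higher and 2 lower, with the receptors Grik2 at -0.39 ± 0.11 and Grm4 at 0.42 ± 0.13 beside the called Gria4. Of 21 GABA genes there were 3 higher and 4 lower, with the receptor genes Gabra3 at -0.57 ± 0.17 and Gabbr1 at 0.33 ± 0.13. Of 23 sodium and calcium channel genes there were 3 higher and 1 lower, with Scn1a at -0.41 ± 0.099 and Cacna1i at 0.42 ± 0.14 beside the called Scn3b. Of 28 synaptic vesicle genes there were 2 higher and 1 lower, Syn2 at 0.29 ± 0.098, Syp at 0.36 ± 0.15 and Sypl at -0.28 ± 0.11.

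The remaining lists had few such members. Of 17 genes of Htt and its partners there were 1 higher and 2 lower, Dctn1 at 0.24 ± 0.11, Zdhhc17 at -0.16 ± 0.07 and Prpf40b at -0.27 ± 0.13. Of 12 mismatch repair genes, some of which modify CAG repeat expansion, there were 2 higher and 0 lower, with Mlh3 at 0.23 ± 0.103. Of 20 immediate early genes, transcribed after neuronal activity, there were 0 higher and 2 lower, Nr4a2 at -2.66 ± 0.99 and Ier2 at -0.66 ± 0.27. Of the 20, 17 had negative and 3 positive fold changes (median -0.22, and -0.32 without KI-FL mouse 4). The median depended on the WT mice used, at -0.46 against WT mice 5 to 7. It was -0.04 against WT mice 1 to 4, with 10 positive and 10 negative. Nr4a2 was 39.2 CPM in WT mouse 3, with a WT median of 2.44 CPM, and had -1.56 without that mouse. Of 13 SR splicing factors there were 0 higher and 2 lower, Srsf11 at -0.43 ± 0.16 and Srsf5 at -0.54 ± 0.21, and 0 higher and 0 lower without KI-FL mouse 4. Of 20 antioxidant genes there were 2 higher and 3 lower, with Keap1 at 0.43 ± 0.11, Txnrd1 at 0.35 ± 0.11 and Cat at -0.28 ± 0.12. The neurotrophin list had 0 higher and 1 lower of 7 (Bdnf at -2.45 ± 1.05, and -1.36 without WT mouse 3, which had 8.38 CPM beside a WT median of 0.708 CPM), the clock list 1 higher and 0 lower of 19, the glucocorticoid list 2 higher and 0 lower of 17 and the polyamine list 1 higher and 0 lower of 11.

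Markers of neighbouring tissue were high in single mice, and blood markers were below the WT range in 3 of 4 KI-FL mice. Of 12 choroid plexus genes there were 7 higher and 0 lower (median 1.95), but 0 higher and 0 lower without KI-FL mouse 1 (median -0.41). Their mean was 5.10, 1.36, 0.98 and -0.58 log2 CPM in KI-FL mice 1 to 4 and 0.43 to 2.42 in WT. Ttr, the main choroid plexus transcript, was 2783, 123, 37.7 and 23.0 CPM in KI-FL mice 1 to 4 with a WT median of 48.5 CPM. Of 12 cortical excitatory neuron genes there were 1 higher and 2 lower (median -1.12), and the median was -0.02 without WT mouse 3. Haemoglobin and haem genes had a mean of 4.04, 4.001, 4.61 and 4.08 log2 CPM in KI-FL mice 1 to 4 and 4.28 to 4.69 in WT, with Hba-a1 at 19.9, 11.5, 26.7 and 31.3 CPM in KI-FL mice and a WT median of 54.1 CPM. They had 1 higher and 2 lower of 13, with Hba-a1 at -1.23 ± 0.30 and Hbb-bs at -1.11 ± 0.33, blood vessel genes had 2 higher and 0 lower of 19, and septal, pallidal, hypothalamic or thalamic neuron genes had 0 higher and 2 lower of 12. The part of these tissues in the other differences was not tested. Without KI-FL mouse 4, some log2 fold changes given above moved by over 1.5 times, to 0.22 for Slc18a3, 0.25 for Grm4, -0.52 for Ly86, -0.26 for Srsf11, 0.16 for Suv39h1, 0.24 for Psmd4, 0.19 for Fkbp4, -0.21 for C1ql1 and 1.18 for Gm13091. Other KI-FL mice also moved values by over 1.5 times. Tac1 fell to 0.17 without KI-FL mouse 1, Pdia6 to 0.17 without KI-FL mouse 2 and Syp to 0.23 without KI-FL mouse 3.

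**Figure D5:**
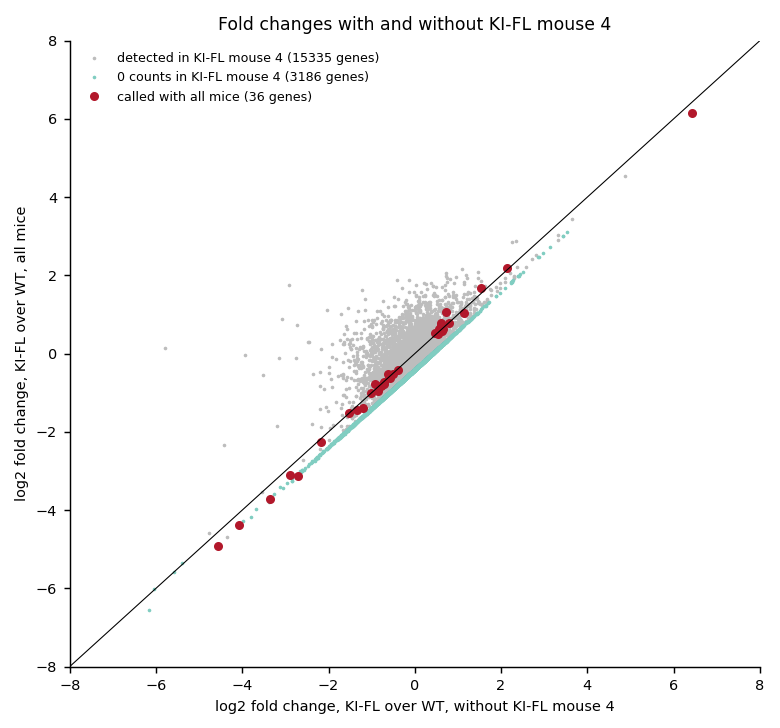
Log2 fold change of KI-FL over WT for 18521 tested genes without KI-FL mouse 4 (horizontal axis) and with all mice (vertical axis), with a line of equality. Genes with 0 counts in KI-FL mouse 4 (3186, coloured points) lie mostly in a band below the line, and the 36 called genes (large points) lie near it.

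The 3186 genes with 0 counts in KI-FL mouse 4 had a median WT level of 0.763 CPM, against 22.1 CPM for the other tested genes, and 47.5% of them were protein-coding, against 87.0%. Of these genes, 749 had a mean over 20 counts in KI-FL mice 1 to 3. The most abundant in the other 10 mice were Gm6969, Zfp870, Zfp189, Mplkip and Tm6sf1. Zfp870, a zinc finger gene, was 10.4, 12.8, 10.5 and 0 CPM in KI-FL mice 1 to 4, with WT at 7.79 to 10.5 CPM, and Tm6sf1, a membrane protein gene, was 4.78, 10.7, 6.42 and 0 CPM, with WT at 7.11 to 10.98 CPM. Zfp189 and Mplkip were 6.82 to 11.4 and 6.42 to 8.55 CPM in KI-FL mice 1 to 3. The pseudogene Gm6969 was at most 0.354 CPM in any KI-FL mouse and reached 48.3 CPM in WT, with a WT median of 0.118 CPM.

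The median log2 fold change of the genes at 0 in KI-FL mouse 4 was -0.63 with all mice and -0.23 without it, and that of the other genes was 0.02 and 0.00. Of the genes at 0 there, 490 were at an unadjusted p under 0.05 with all mice, 477 of them lower. Among the 36 called genes 4 were at 0 counts in that mouse, and over both fits 15068 of 18521 genes had the same direction. Interferon-stimulated genes had a median of -0.32 with all mice and -0.08 without KI-FL mouse 4, in which 10 of 19 had 0 counts.

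The region around Htt on chromosome 5, where the knock-in lies, was described separately. Of 153 tested genes within 5 Mb of Htt, 34 were at an unadjusted p under 0.05 with all mice (22.2%) and 18 without KI-FL mouse 4 (11.8%), beside 16.7% and 13.4% over all genes. Within 1 Mb there were 5 and 6 of 39. Ost4 was the called gene within 5 Mb. Over the whole of chromosome 5 the share was 17.1%.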

How the data were processed

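Striatal RNA of 4 KI-FL and 7 WT mice was compared, with groups taken from the sample titles. The deposited values were counts of reads per gene, not normalized by the authors. Per the study's methods, reads were trimmed with BBduk, aligned to GRCm38 with STAR and counted with HTSeq, as the submitters' processing notes also name. Versions and strand setting are not given in the sources used here. The 5 HTSeq summary lines, which held 20.8 to 25.6% of each library's total in these mice, were left out, and 4 columns that match no labelled mouse were not used.

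Counts of all 19 mice were fitted with edgeR 4.0.16 (R 4.3.3) by quasi-likelihood, with genotype as the only term, TMM scaling, filterByExpr (minimum count 10, total 15) and Benjamini-Hochberg adjustment at 0.05, and fitted again without KI-FL mouse 4. The study used DESeq2 with sacrifice batch and removed a WT mouse that it does not name; the labels give no batch, so all WT mice were kept. Nothing in the labels ties mice to litters or days, and p-values measure the spread between these mice. Log2 CPM used a prior count of 2. Each SE was derived from the test, as the absolute log2 fold change divided by the square root of the quasi-likelihood F statistic, and is approximate. The scripts were tested on simulated data.

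Genes named were Htt, all genes called in either fit, up to 3 genes of each list with the smallest unadjusted p under 0.05 (at most 2 defining genes for lists with none), the 10 largest fold changes in each direction among genes at an unadjusted p under 0.01 in both fits without overlap, and the 5 most abundant genes at 0 in KI-FL mouse 4. Gfap, Rpl38 and Tmsb10 were named after their values were seen. Some genes that the rule names are not reported here. Members and lists were chosen with earlier results of these data known. Positions came from GENCODE (18509 of 18521 tested genes matched) and promoters from RefSeq, and shared sequence was counted as exact words of 50 bases. Alternatives were DESeq2 1.42.0, its size factors, other filters, fewer groups or mice, Xist as a covariate, surrogate variables (sva 3.50.0), a robust spread and a replicate block. Leaving out both Xist-high mice, and KI-FL mice 1 to 3 in turn and WT mouse 3 for the lists, was added after seeing the data.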

Additional observations from a re-analysis of the deposited data

Results flagged for a closer look

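In 131 groups of mice examined for a single mouse far from the rest, 13 were found, beside about 7 expected at 1 in 20. That expectation does not hold where the other mice are tied at 0 counts, as in 5 genes below, so no conclusion is drawn from it. The genes detected and the genes at 0 counts in KI-FL mouse 4 also describe much the same fact. KI-FL mouse 4 had the fewest genes detected (16384, the other KI-FL mice 23177 to 23950) and the most tested genes at 0 counts (3186, the others 134 to 222), and its proteasome list mean was the lowest (5.53 log2 CPM, the others 5.80 to 5.82). KI-FL mouse 1 had the highest striatal projection neuron mean (8.44 log2 CPM, the others 8.19 to 8.23), and WT mouse 3 the highest cortical excitatory neuron mean (5.59 log2 CPM, the others at most 3.26). WT mouse 4 was the lowest WT mouse for Rpl23a (1.46 log2 CPM, the others 2.37 to 2.76) and for Gm37589 (-2.67 log2 CPM, the others -1.23 to -0.18). KI-FL mouse 1 was the highest KI-FL mouse for Gm3788 (0.049 log2 CPM, the others -0.71 to -0.60). For 5 genes near the floor, a single KI-FL mouse had reads and the others were at 0 counts (-3.25 log2 CPM). These were Gm10180 in mouse 1 (-2.07), Gm37078 in mouse 1 (-2.07), Gm23615 in mouse 2 (-2.44), and Sprr1a and Slc6a20b in mouse 3 (-2.68 log2 CPM for both).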

How the results depend on the processing

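With all mice, the 36 genes at an adjusted p under 0.05 became 509 with DESeq2, 85 without a filter on low counts (36846 genes tested), 55 with at least 10 counts in every mouse (13672 tested), 336 with only WT and KI-FL mice in the fit, 62 with a robust spread, 265 at an adjusted p under 0.1, 3 with 1 surrogate variable, and 0 with Xist as a covariate, against WT mice 1 to 4, and without both Xist-high mice. Leaving out mice in turn gave 0 to 67 calls. Without KI-FL mouse 4, the 7 calls became 167 with DESeq2, 47 without the filter, 208 with only WT and KI-FL mice, 79 with 1 surrogate variable, 49 against WT mice 5 to 7, and 0 with Xist, against WT mice 1 to 4, and without both Xist-high mice. Leaving out mice in turn gave 0 (without KI-FL mouse 2) to 19 (without WT mouse 3), and 1 to 5 otherwise. Where edgeR called 0, there were 1192 to 3262 genes at an unadjusted p under 0.05. The genes at an unadjusted p under 0.05 became 5285 and 3908 without the filter, with and without KI-FL mouse 4, and 1540 and 1304 against WT mice 1 to 4. Higher genes were 41.7% of the calls, 34.1% with DESeq2 size factors, 61.6% with only WT and KI-FL mice and 63.9% with 2 surrogate variables. The replicate block gave 0 calls in both fits and 1492 and 1192 genes at an unadjusted p under 0.05. WT and KI-FL mice with the same number correlated by -0.0369 to 0.062 in their deviations from the group mean. Mice with different numbers were not compared, so these values cannot decide whether same-numbered mice share a litter or day. Of the log2 fold changes, those that changed sign were Drd1 (0.041 against WT mice 5 to 7, 0.028 without both Xist-high mice), Adora2a (0.003 with Xist, 0.11 against WT mice 5 to 7, 0.13 without both Xist-high mice), Gm6969 (1.22 against WT mice 1 to 4, 1.42 with the block), and, with 1 and 2 surrogate variables, Zfp870 (0.62, 0.58), Zfp189 (0.46, 0.40), Mplkip (0.22, 0.14) and Tm6sf1 (0.21, 0.13). With mice left out in turn, ranges that crossed 0 were Slc4a5 -0.49 to 3.43, Cldn2 -0.39 to 3.72 and Ttr -0.70 to 3.68, each lowest without KI-FL mouse 1, Drd1 -0.10 to 0.036, Drd2 -0.0057 to 0.21, Adora2a -0.11 to 0.094, and Zfp870 -0.40 to 0.28 and Zfp189 -0.66 to 0.12, both highest without KI-FL mouse 4. No called gene changed sign under any alternative. Under the alternatives, 27 list medians moved by more than the spread between mice and 378 did not. The causes of these changes were not tested.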
